A study of Mus musculus with 9 samples.

Results

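Plasma cells of the mouse knee joint were picked out by transcripts other than their antibody chains. A cell entered the gate when it held at least 1 count of Jchain, at least 4 counts of Jchain, Mzb1, Derl3, Tnfrsf17 and Xbp1 together, and no count of Siglech, a surface receptor of plasmacytoid dendritic cells. The gate took 245 of 16749 kept cells (1.46%), 190 of them from sick and 55 from healthy mice. Since the members were chosen by the counts of these 6 genes, the levels of those genes are described here without a test. Heavy and light chain genes played no part in the choice, so that the antibody class of the cells could be compared between the groups.

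The cells came from whole joints of 9 female 129/Sve mice, profiled with Seq-Well, in which each cell shares a tiny well with a bead that tags its polyadenylated RNA. The 5 sick mice carry the numbers 1, 3, 4, 5 and 6. In these mice, pre-sensitized to methylated bovine serum albumin (mBSA), antigen-induced arthritis was triggered at 8 weeks of age. The 4 healthy mice (numbered 1 to 4) received phosphate-buffered saline, and the labels do not say whether they had been sensitized too. All joints were taken 1 week after the injection. The sick mice gave 1397 to 3850 kept cells and the healthy mice 876 to 1399, with 1589079 to 4675909 counts per sick mouse and 896930 to 1514252 per healthy mouse. Healthy mice 2, 3 and 4 stood apart: outside the gate, haemoglobin genes held 34.0%, 39.1% and 36.6% of their counts, against 10.1% to 27.6% in the sick mice and 17.0% in healthy mouse 1. Results without these 3 mice are given beside the main ones below, and rest on 1 healthy mouse. No label names a sequencing batch, and a batch that ran along with the groups cannot be told apart from them.

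Plasma cells are the end stage of B cell development and secrete antibody. Their precursors rearrange a heavy and a light chain variable gene once, and class switching then joins the same heavy chain variable region to the constant region of IgG, IgA or IgE in place of IgM. The joining chain encoded by Jchain links the units of secreted IgM and IgA, and is also made by many IgG plasma cells. Xbp1 drives the enlargement of the endoplasmic reticulum (ER), where Mzb1 helps to assemble antibody and Derl3 takes part in the removal of misfolded protein. Tnfrsf17 (BCMA) is a survival receptor of long-lived plasma cells. In protein immunization of mice with adjuvant, IgG1 is often a main class of the antibody response.

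The subclasses of IgG are told apart by their constant region genes, which lie side by side on chromosome 12 (GRCm38, minus strand). Ighg1 spans chr12:113325240-113330523, Ighg2b chr12:113302965-113307933, Ighg2c chr12:113285325-113288932 and Ighg3 chr12:113356224-113361232. The last 60 coding bases of each secreted form are shown because the counts come from polyadenylated ends, and because the subclass calls below rest on such differences. The sequences are from the GENCODE M21 transcripts, and capitals mark the bases that differ from Ighg1.
Ighg1: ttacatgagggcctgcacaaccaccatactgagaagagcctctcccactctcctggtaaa
Ighg2b: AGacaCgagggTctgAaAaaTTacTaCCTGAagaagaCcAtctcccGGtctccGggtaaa
Ighg2c: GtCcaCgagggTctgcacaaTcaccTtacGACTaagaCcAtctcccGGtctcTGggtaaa
Ighg3: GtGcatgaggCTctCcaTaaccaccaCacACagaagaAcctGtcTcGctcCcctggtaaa
Over the 320 coding bases of the last exon of the secreted forms, Ighg1 was identical to Ighg2b at 68.1%, to Ighg2c at 71.2% and to Ighg3 at 73.4% of positions. Ighg2b and Ighg2c were the most alike pair, with 76.6%. The reference is not of the strain studied, and reads of a 129/Sve allele can be divided among these genes.

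Variable genes name the rearranged chain of a cell, and one pair recurred between mice. The last 300 and 298 germline coding bases of the pair are shown for that reason, with capitals from the last in-frame cysteine codon to the end, the stretch that opens the third complementarity-determining region. Ighv14-3 is a heavy chain variable gene, and this stretch lies at chr12:114059845-114060144 (GRCm38, minus strand). Igkv4-55 is a kappa light chain variable gene, and its stretch lies at chr6:69607275-69607572 (minus strand).
Ighv14-3: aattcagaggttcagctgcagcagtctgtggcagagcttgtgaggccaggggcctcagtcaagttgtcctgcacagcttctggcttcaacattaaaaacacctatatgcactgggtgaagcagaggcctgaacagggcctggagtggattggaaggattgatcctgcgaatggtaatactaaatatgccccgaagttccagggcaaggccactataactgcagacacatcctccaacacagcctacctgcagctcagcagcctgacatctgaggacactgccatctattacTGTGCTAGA
Igkv4-55: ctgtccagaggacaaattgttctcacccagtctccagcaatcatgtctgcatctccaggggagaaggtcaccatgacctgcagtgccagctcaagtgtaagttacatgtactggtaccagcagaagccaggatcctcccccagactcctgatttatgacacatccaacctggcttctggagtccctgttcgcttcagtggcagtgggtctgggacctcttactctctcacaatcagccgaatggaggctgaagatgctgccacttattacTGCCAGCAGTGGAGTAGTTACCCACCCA
These are reference sequences, and the rearranged junctions of the cells were not analysed here.

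The label of plasma cells held for part of the gate only. In 104 gated cells immunoglobulin genes made up at least 10% of the counts, with a median of 30.0%, and in the other 141 they made up less, with a median of 0.442%. The 104 immunoglobulin-rich cells had a median of 55 Jchain counts, and 100 of them had at least 10. The 141 poorer cells had a median of 4 Jchain counts. Outside the gate, 2 of the other kept cells reached the 10% mark, both from sick mice and both of the IgG class. The 10% mark was set after the data were seen, and values of the immunoglobulin-rich cells are therefore given without a test.

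The poorer cells carried transcripts of other lineages. Haemoglobin genes made up a median of 21.2% of their counts, against 3.97% in the immunoglobulin-rich cells, and exceeded 20% in 73 of the 141 cells and in 12 of the 104. Of these gated cells over 20%, 35 came from healthy mouse 3, while 96 of the 104 immunoglobulin-rich cells came from sick mice. The contrast in haemoglobin is thus partly one between mice. Elane, which encodes neutrophil elastase, stood at 3225 CPM (counts scaled to 1000000) in the poorer cells, at 439 CPM in the immunoglobulin-rich ones and at 719 CPM in all other kept cells. Mpo, the myeloperoxidase of primary granules, stood at 2138, 318 and 589 CPM in the same 3 sets. The 5 erythroid markers together stood at 158524, 94907.5 and 226274 CPM, so that the poorer cells lay below the other kept cells there. Elane, Mpo, Prtn3, Ctsg, Ms4a3 and Nkg7 were all among the 25 leading genes of the gate and were all lower in the immunoglobulin-rich cells than in the poorer ones. Median depth was 1367 counts per cell in the poorer cells and 1084.5 in the richer ones, against 889 in the other kept cells. No doublets were removed, and what part doublets and free RNA have in these values was not tested.

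The edge of the gate showed the same. The 51 cells with a sum of exactly 4 had a median immunoglobulin share of 0.192%, and none of them reached 10%. The 109 cells just outside, with a sum of 3, had a median of 0.119%, and none reached 10%. Siglech kept 5 cells out, none of them immunoglobulin-rich. Jchain supplied 90.0% of the gate counts summed over cells. By cell, 183 held at least 4 Jchain counts, and the other 62 held 1 to 3 and passed with Mzb1, Xbp1 or the other genes. Mzb1 was found in 127 gated cells and Xbp1 in 143, while Tnfrsf17 was found in 7 and Derl3 in 4. Without Xbp1 in the sum, the difference in the share of gated cells given below was 0.0740 in place of 0.346 percentage points. No gated cell shared its barcode with a cell of another library, whereas 8 barcodes (16 cells) were shared among the rest.

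**Figure D1:**
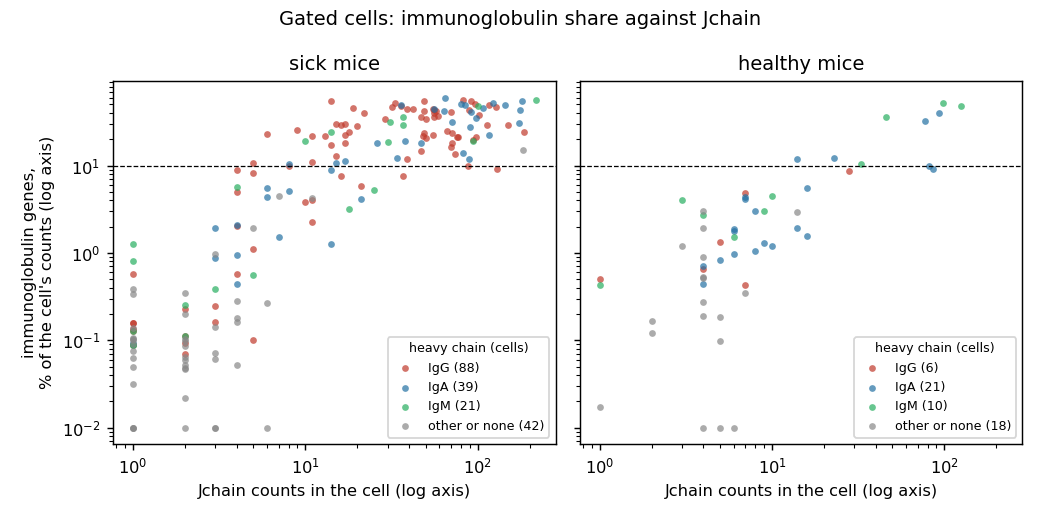
Each point is a gated cell, with its Jchain counts on the horizontal axis and the percent of its counts from immunoglobulin genes on the vertical axis (both log axes), sick mice left and healthy mice right, coloured by heavy chain class. The dashed line marks 10%, above which lie 96 cells of sick and 8 of healthy mice; the 10 cells with no immunoglobulin count are drawn at 0.01%.

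Genes of the secretory pathway were higher in the gate than outside it. Summed over the gate, all 24 ER chaperones and folding enzymes had a higher level than in the other kept cells, with a median ratio of 2.04, and 25 of 26 genes of protein translocation, signal peptidase and glycosylation did, with a median ratio of 1.53. Among the 6354 genes with at least 10 counts in the gate, 3866 were higher and the median ratio was 1.10. Plasmacytoid dendritic cells (at least 2 Siglech counts) came close to the gate. Their ER chaperones summed to 5371 CPM, against 6352 in the gate, 9835 in its immunoglobulin-rich cells and 2976 in the other kept cells. Genes of ER export and Golgi summed to 1487 CPM in plasmacytoid dendritic cells and 1491 CPM in the gate. All 10 plasma cell markers that the gate did not use were higher in the gate, with a median ratio of 4.82. That holds for the summed cells, mostly of sick mice, and 0 of the 10 were higher in all 9 mice. Sdc1, for one, had no count in gated cells of healthy mice. Between both kinds of gated cells the lists were less uniform. Of the ER chaperones 19 were higher and 5 lower in the immunoglobulin-rich than in the poorer cells, of the translocation list 16 were higher and 10 lower, and of 16 detected genes of ER export and Golgi 7 were higher and 9 lower. All 10 plasma cell markers were higher in the immunoglobulin-rich cells. These are descriptions of summed cells, with no test.

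Only 1 of the 24 ER chaperones and 1 of the 26 translocation genes were higher in the gate than outside it in all 9 mice. Hsp90b1, the ER chaperone GRP94, was the former. It stood at 3732 CPM in the immunoglobulin-rich cells, at 951 CPM in the poorer gated cells and at 568 CPM in the other kept cells. In plasmacytoid dendritic cells it stood at 1566 CPM, against 1750 CPM in the whole gate. Ssr4, a subunit of the translocon-associated complex, was the latter, at 1119, 333 and 149 CPM in the immunoglobulin-rich, the poorer and the other kept cells. Pdia4, a disulphide isomerase, stood at 483, 92.3 and 58.1 CPM in the same 3 sets. Hspa5, the ER chaperone BiP, differed less, at 1799, 1366 and 788 CPM. The step between the 2 kinds of gated cells was large for Creld2, an ER-resident folding factor (394, 66.6 and 33.6 CPM), and for Fkbp11, a prolyl isomerase of secretory cells (140, 41.0 and 5.79 CPM). Canx, the chaperone calnexin, went the other way, at 223, 431 and 313 CPM, as did the oxidase gene Ero1l at 25.4, 113 and 64.2 CPM.

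Markers of the mature plasma cell were highest in the immunoglobulin-rich cells, at low levels. Sdc1, the surface proteoglycan CD138, was detected in 13 gated cells and stood at 69.9 CPM in the immunoglobulin-rich, 7.69 CPM in the poorer and 2.64 CPM in the other cells. Prdm1, the repressor Blimp-1, was detected in 10 gated cells, at 50.9, 7.69 and 3.98 CPM. Irf4, a transcription factor required for plasma cells, was found in 7 cells, at 38.1, 5.13 and 9.41 CPM. Slamf7, a surface receptor of plasma cells, reached 159, 35.9 and 11.6 CPM, and Eaf2, an elongation factor partner, reached 146, 2.56 and 2.59 CPM. Herpud1, a component of ER-associated degradation, reached 337, 79.5 and 61.8 CPM, with 217 CPM in plasmacytoid dendritic cells against 153 CPM in the whole gate. Of 17 detected genes of B cell identity and antigen presentation, 5 were higher and 12 lower in the immunoglobulin-rich than in the poorer cells. Pax5 and Bach2, which are silenced in plasma cells, had no count there, but only 5 and 3 counts in the whole gate. Cd79a, a subunit of the B cell receptor, stood at 89.0, 10.3 and 19.6 CPM, and Cd74, the invariant chain of antigen presentation, at 725, 302 and 292 CPM. Ighd, the IgD constant gene, had none in the whole gate.

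**Figure D2:**
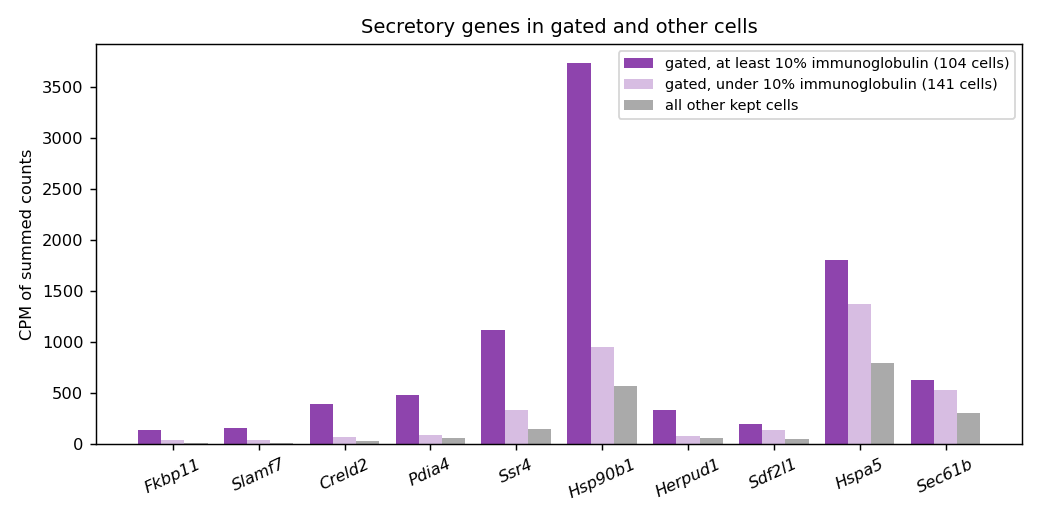
Bars give the CPM of summed counts for 10 genes in gated cells with at least 10% immunoglobulin counts, in the other gated cells and in all other kept cells. They are genes of the secretory pathway except Slamf7, a surface receptor gene. The genes were chosen after their values were seen, and each is highest in the immunoglobulin-rich cells (Hsp90b1 at 3732, 951 and 568 CPM).

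Some lists outside the secretory pathway were lower in the gate. Of 23 cell cycle genes 5 were higher in the gate than outside it (median ratio 0.844), of 30 interferon-stimulated genes 7 were (0.774), and of 15 homing and adhesion genes 4 were (0.801). Heat shock and immediate-early genes went the other way, with 17 of 18 higher in the gate (1.28). Of these 18 genes, 15 were higher and 3 lower in the immunoglobulin-rich than in the poorer cells. Mki67, a marker of dividing cells, stood at 540 CPM in the immunoglobulin-rich cells, at 1028 CPM in the poorer gated cells and at 1341 CPM in the other kept cells. Cxcr4, the receptor that holds plasma cells in bone marrow, stood at 108, 66.6 and 124 CPM. Of the 6 markers of plasmacytoid dendritic cells, among them the excluded Siglech, 1 was higher in the gate. All 4 T or NK cell markers were higher (median ratio 2.83), but Cd3e, Cd3g and Trbc2 had 1, 2 and 5 counts in the gate and Nkg7 had 134. Nkg7, which encodes a granule protein, stood at 44.5 CPM in the immunoglobulin-rich cells, at 326 CPM in the poorer ones and at 75.3 CPM in the other cells. Of 6 neutrophil and 5 erythroid markers none was.

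The difference in the number of gated cells between the groups lay within the spread between mice. They made up 1.77%, 2.05%, 1.00%, 1.06% and 1.39% of the kept cells in sick mice 1, 3, 4, 5 and 6, and 0.476%, 0.913%, 2.72% and 0.327% in healthy mice 1 to 4. One healthy mouse, number 3, lay above all sick mice, and the other 3 lay below them. The mean was 1.45 ± 0.453% (SD, n = 5) in sick mice and 1.11 ± 1.10% (n = 4) in healthy mice, an exact permutation p of 0.524 (two-sided, adjusted p = 0.794 over 3 measures of abundance). The smallest p that 126 splits of the mice allow is 0.0159. Without healthy mouse 3 the difference was 0.882 percentage points (exact p = 0.0357, adjusted p = 0.107), against 0.346 points with all mice. It was 0.135 without healthy mouse 1, 0.0853 without healthy mouse 4 and 0.196 without sick mouse 3, so that its size rested on single mice. Without healthy mice 2, 3 and 4 it was 0.978 percentage points, with no test. Without the gated cells rich in S100a8 and S100a9 or haemoglobin, the difference was 0.501 percentage points (exact p = 0.0159, adjusted p = 0.0476). That filter left 86 of 190 gated cells in sick and 7 of 55 in healthy mice, 2 of 38 in healthy mouse 3, while the denominator stayed the same. Haemoglobin counts themselves differed between the groups, and this p is therefore no support for a difference. These p-values measure the spread between mice.

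Ratios to other cell types passed no test either. Per plasmacytoid dendritic cell (141 cells with at least 2 Siglech counts), the log2 ratio of gated cells was 0.36 higher in sick mice (exact permutation p = 0.714), and per early B-lineage cell (211 cells) the difference was -0.52 (exact p = 0.794). Both pairs of groups overlapped, and neither direction was stable. The difference per plasmacytoid dendritic cell was -0.26 without healthy mouse 1, and 2.24 without healthy mice 2, 3 and 4. Per early B-lineage cell it was 0.87 without healthy mouse 3 and 1.49 without healthy mice 2, 3 and 4.

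Healthy mouse 3 had many gated cells but few immunoglobulin-rich ones. Immunoglobulin-rich cells numbered 19, 43, 8, 12 and 14 in sick mice 1, 3, 4, 5 and 6, and 1, 1, 4 and 2 in healthy mice 1 to 4. As a percent of kept cells this was 0.907, 1.12, 0.573, 0.530 and 0.540 in the sick mice and 0.0951, 0.114, 0.286 and 0.164 in the healthy mice. Every sick mouse lay above every healthy one, with no test, since the 10% mark followed from the data and counts antibody transcripts, which can differ between the groups by themselves. In healthy mouse 3 these cells were 4 of 38 gated, and haemoglobin genes held 36.8% of the gated counts, against 8.13% to 19.6% in the sick mice and 14.5% to 33.3% in the other healthy mice.

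**Figure D3:**
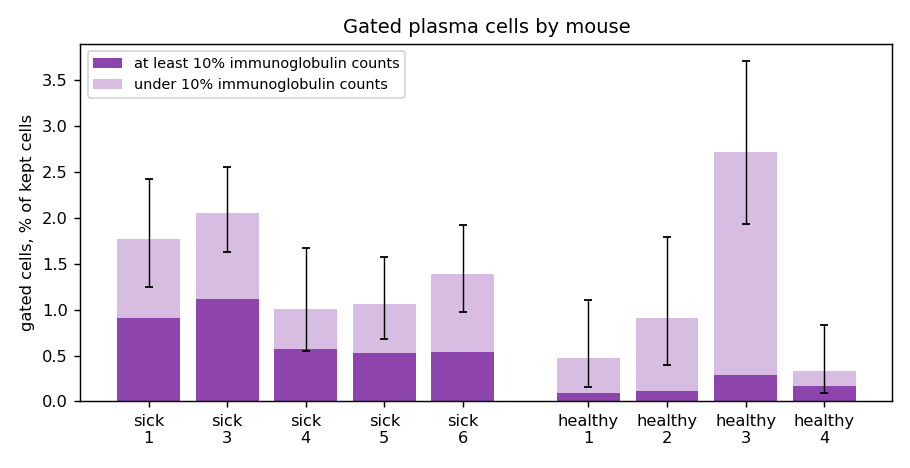
Bars give gated cells as a percent of the kept cells of each mouse, sick mice left and healthy mice right, split into cells with at least 10% and under 10% immunoglobulin counts. Error bars are exact 95% binomial intervals of the whole bar and cover counting error only; healthy mouse 3 (2.72%) is highest, yet only 0.286% of its kept cells are immunoglobulin-rich.

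The gated cells were then compared by heavy chain class. The constant genes of each class were summed, those of the IgG subclasses together. A class was called where it held the majority of a cell's heavy chain constant counts, given at least 2 such counts. A class could be called in 186 gated cells, of which 94 were IgG, 60 IgA, 31 IgM, 1 IgE and 0 IgD. Of the 149 called cells of sick mice 88 were IgG, 39 IgA and 21 IgM. Of the 37 called cells of healthy mice 6 were IgG, 21 IgA and 10 IgM. Cells are not replicates, and the comparison rests on the mice.

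IgG cells numbered 24, 41, 5, 3 and 15 in sick mice 1, 3, 4, 5 and 6, and 0, 1, 5 and 0 in healthy mice 1 to 4. As a percent of kept cells they came to 1.15, 1.06, 0.358, 0.132 and 0.578 in the sick mice and to 0, 0.114, 0.357 and 0 in the healthy mice. Sick mouse 5 fell within the healthy range, and sick mouse 4 lay just above its top. The mean was 0.656 ± 0.441% (SD, n = 5) in sick mice and 0.118 ± 0.168% (n = 4) in healthy mice, with an exact permutation p of 0.0317 and an adjusted p of 0.0952 over the 3 classes, which misses the threshold of 0.05. The adjusted p was 0.0476 when cells with at least 20% haemoglobin counts were left out of both the gate and the denominator. Haemoglobin counts themselves differed between the groups, and that p is therefore no separate support. With all cells the difference was 0.538 percentage points. Without healthy mice 2, 3 and 4 the difference was 0.656 percentage points, with no test. Outside the gate, the same IgG call was met by 0.723% to 6.26% of the cells of sick mice. In healthy mice it was met by 0.0956% to 0.461%, so that the background of the call differed between the groups too. Of the 94 gated IgG cells 60 were immunoglobulin-rich. What part the background has in the IgG difference was not tested.

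IgA and IgM cells passed no test, and the direction of both turned with single mice. IgA cells made up 0.302 ± 0.183% of the kept cells in sick mice (n = 5) and 0.422 ± 0.447% in healthy mice (n = 4), an exact p of 0.698. IgM cells made up 0.181 ± 0.110% and 0.187 ± 0.260%, an exact p of 0.984. The groups overlapped in both classes, and healthy mouse 3 was highest in each, at 1.07% and 0.572%. Without that mouse the difference was 0.0973 percentage points for IgA and 0.122 for IgM, in place of -0.1196 and -0.00631. Without healthy mice 2, 3 and 4 it was 0.112 and 0.0857. Whether the IgG difference exceeded that of IgA or IgM was not tested.

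IgG cells took 75.0%, 68.3%, 45.5%, 17.6% and 51.7% of the called cells in sick mice 1, 3, 4, 5 and 6, a mean of 51.6 ± 22.5% (n = 5). Among the healthy mice only number 3 had at least 5 called cells, with IgG at 17.9%, so no test was possible. That value lay next to sick mouse 5 and below the other sick mice. Among the immunoglobulin-rich cells the classes separated further. IgG cells there numbered 16, 29, 4, 3 and 8 in the sick mice and 0 in each healthy mouse. The 8 immunoglobulin-rich cells of healthy mice were 4 IgA and 4 IgM cells, against 26 IgA and 9 IgM cells in sick mice.

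**Figure D4:**
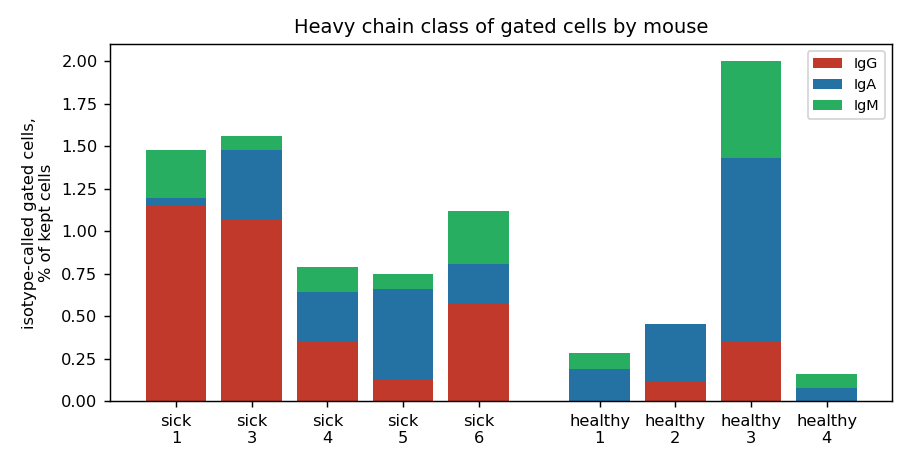
Stacked bars give gated cells called IgG, IgA or IgM as a percent of the kept cells of each mouse, sick mice left and healthy mice right. IgG holds 1.15% and 1.06% of the cells of sick mice 1 and 3, and none in healthy mice 1 and 4.

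The plasma cell traits of the classes overlapped. Among immunoglobulin-rich cells, the median immunoglobulin share was 29.4% in 60 IgG cells, 31.9% in 30 IgA cells and 31.9% in 13 IgM cells. Their median Jchain counts were 49, 78.5 and 37, with ranges of 5 to 187, 8 to 182 and 10 to 217 that overlapped widely. Jchain was part of the gate, so IgG cells without it would have been missed. Light chains could be called in 204 gated cells, 191 kappa and 13 lambda (6.37% lambda). Lambda cells numbered 1, 4, 0, 1 and 5 in sick mice 1, 3, 4, 5 and 6 and 0, 0, 1 and 1 in healthy mice 1 to 4. A single IgE cell, in sick mouse 1, rested on 3 Ighe counts.

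Within the gate, counts were summed per mouse and compared by edgeR (quasi-likelihood test) in the 5 sick and the 3 healthy mice with at least 5 gated cells, leaving out healthy mouse 4 with its 4 cells. In such sums, fewer cells that make a transcript and less of it per cell cannot be told apart. Of 690 genes that passed the low-count filter, 1 was higher (0.145%) and 2 were lower (0.29%) in sick mice at a false discovery rate of 0.05. At an unadjusted p under 0.05 there were 37 higher and 47 lower. How many of the 690 genes did not overlap between the groups is not given here. Where a named gene is said not to overlap, that is description only. The gene that rose was Ighg1, the constant gene of IgG1, which passed the filter through the sick mice alone.

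Ighg1 had 1511, 3398, 232, 564 and 1264 counts in the gated cells of sick mice 1, 3, 4, 5 and 6, and no count in any of the 4 healthy mice. In relation to all gated counts this was 19470, 15457, 7455, 8415 and 16535 CPM in the sick mice, without TMM scaling. The groups did not overlap. The level over all gated cells of sick mice, 14764 CPM, was at least 371-fold higher than the 39.8 CPM that 3 counts over all gated cells of healthy mice would give. The adjusted p from edgeR was 0.000441, and it lay between 0.000564 and 0.00352 when each mouse was left out in turn. Without healthy mice 2, 3 and 4 it was 0.0386, in a fit that takes the spread between sick mice to hold for the single healthy mouse too. With the mouse number as a block the call was lost (edgeR adjusted p = 0.666), at a fitted log2 difference of 13.06 in place of 12.82. Only numbers 1 and 3 occurred in both groups of that fit, which left few mice beyond the blocks to estimate the spread. The lost call therefore decides nothing. Since the gene passed the low-count filter only through the mice in which it was high, these p-values add no support to the counts themselves.

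Ighg1 was found in 55.3% of gated cells in sick mice (median depth 1367.5 counts) and in 0 of 55 in healthy mice. For counting error alone this allows a share of up to 5.45% of cells with a count, which is no limit on cells that express the gene, and 38 of the 55 cells came from healthy mouse 3. Erythroid cells, which make no antibody, held it in 18.6% in sick mice (median depth 1143 counts) and in 0.367% in healthy mice (909 counts), so that the background share differed between the groups too. With at least 2 counts required, the share in sick mice was 40.0% of gated and 3.68% of erythroid cells. The gate held 70.9% to 85.3% of all Ighg1 counts in the sick joints. In the other kept cells of the same mice Ighg1 stood at 57.1 to 313 CPM in sick mice and at 0 to 5.95 CPM in all 4 healthy mice.

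The other IgG genes were also low in healthy mice, without passing the test. They had no count in healthy mouse 1, and could not have passed the low-count filter without the sick mice. The fitted values below therefore add no support to the counts themselves. Ighg2b stood at 6146, 2998, 2314, 1373 and 4291 CPM in sick mice 1, 3, 4, 5 and 6 and at 0, 81.2, 610 and 0 CPM in healthy mice 1 to 4 (log2 difference 2.88 ± 0.96 SE, edgeR adjusted p = 0.267). Ighg2c stood at 5927, 2698, 4981, 2432 and 2289 CPM in the sick mice and at 0, 81.2, 813 and 0 CPM in the healthy mice (2.58 ± 0.95, adjusted p = 0.295). Neither gene overlapped between the groups, a description given without the share over all tested genes. Ighg3 stood at 387, 127, 386, 328 and 353 CPM in sick mice and at 0, 0, 135 and 0 CPM in healthy mice (1.35 ± 0.84, adjusted p = 0.593), with sick mouse 3 just under healthy mouse 3.

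The constant genes of the other classes showed no such pattern. Igha stood at 1417, 4362, 6138, 10907 and 5259 CPM in sick mice 1, 3, 4, 5 and 6, and at 6488, 8932, 4606 and 8225 CPM in healthy mice 1 to 4 (log2 difference -0.53 ± 0.54, edgeR adjusted p = 0.827). Ighm stood at 2551, 632, 2764, 2551 and 5377 CPM in sick mice and at 1180, 0, 9867 and 20275 CPM in healthy mice (-1.27 ± 1.14, adjusted p = 0.786). Both overlapped between the groups. Igkc, the kappa constant gene, differed by 0.34 ± 0.46 (adjusted p = 0.904), and the lambda genes Iglc1, Iglc2 and Iglc3 did not pass either.

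**Figure D5:**
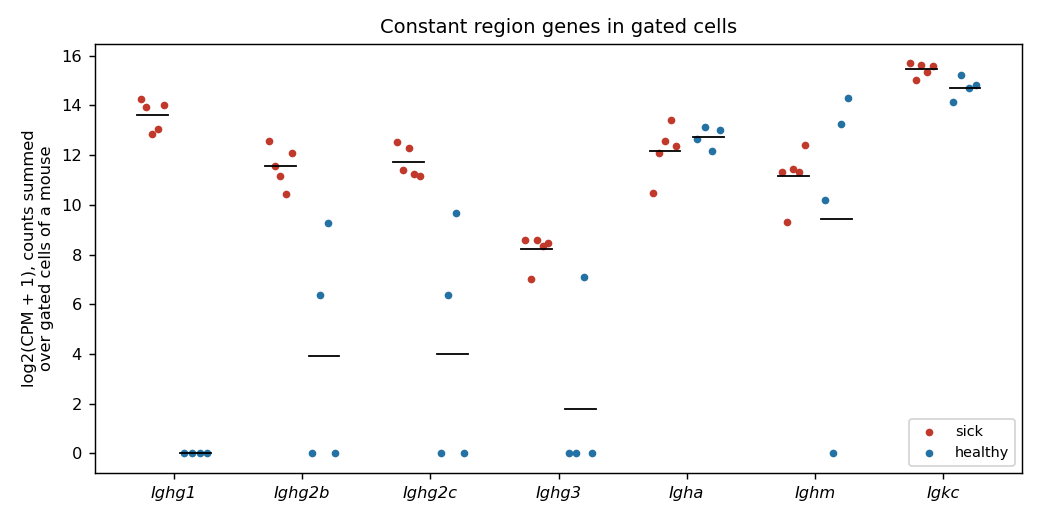
Points give log2(CPM + 1) of each constant region gene in counts summed over the gated cells of a mouse (no TMM scaling; 5 sick mice left, 4 healthy mice right of each gene) and bars the group means. Ighg1 lies at 0 in all healthy mice and between 7455 and 19470 CPM in the sick mice, while Igha and Ighm overlap.

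Single cells mostly used 1 IgG gene, with 1 exception. Of 71 cells with at least 10 IgG counts, 49 were led by Ighg1, 6 by Ighg2b and 16 by Ighg2c. The 49 Ighg1-led cells came from all 5 sick mice, at 15, 24, 2, 2 and 6 cells, and 95.0% of their IgG counts were Ighg1. The 6 Ighg2b-led cells, all from sick mice, held 92.2% Ighg2b. The 16 cells led by Ighg2c, 15 from sick mice and 1 from healthy mouse 3, were mixed. They held 59.1% Ighg2c, 32.7% Ighg2b, 5.54% Ighg3 and 2.70% Ighg1. The Ighg2c share ran from 51.4% to 89.9% over these cells, so the mixture was found cell by cell. Whether reads of 1 allele were divided among Ighg2c, Ighg2b and Ighg3 was not tested, and levels of these 3 genes are uncertain for that reason.

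Variable genes could be called where a cell held at least 5 counts of 1 gene. A heavy chain variable gene was called in 33 gated cells (29 of sick, 4 of healthy mice) with 20 genes, and a light chain one in 112 cells (97 and 15) with 46 genes. In 31 cells both were called, which gave 26 distinct pairs. Use was thus spread over many genes, and 2 pairs were found more than once in a mouse, both in sick mouse 1.

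The pair Ighv14-3 with Igkv4-55, whose germline sequences are given above, was found in 5 IgG1 cells of 3 sick mice. In sick mouse 1 the 3 cells held 29, 23 and 5 Ighv14-3 counts and 89, 144 and 17 Igkv4-55 counts, with 162, 163 and 17 Ighg1 counts, and their barcodes differed at 7 or more positions. Sick mouse 3 had 1 such cell, with 11 Ighv14-3 and 36 Ighg1 counts, and sick mouse 6 had 1, with 38 and 209. A 6th cell with Ighv14-3, in sick mouse 3, had Igkv12-41 as its light chain and was led by Ighg2c. None of the 2057 cells of sick mouse 1 outside the gate held 2 or more Ighv14-3 counts. The junctions needed to tell a shared clone from repeated use of the same genes were not analysed here.

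Igkv4-55 was the most used light chain gene, leading in 10 cells of 4 sick mice and in none of healthy mice. In the summed counts it had 741 counts in sick mice, at 4302, 1981, 0, 657 and 2358 TMM-scaled CPM in sick mice 1, 3, 4, 5 and 6, and none in healthy mice 1 to 3, and did not pass (edgeR adjusted p = 0.232). Igkv4-55, too, passed the low-count filter through the sick mice alone. The second repeated pair, Ighv1-59 with Igkv4-57, was found in 2 cells of sick mouse 1, both led by Ighg2c with 35 and 14 counts. Outside the gate, 2 of the 2057 cells of that mouse held 2 or more Ighv1-59 counts. Igkv3-12 led in 8 cells (7 of sick, 1 of healthy mice), Igkv8-30 in 6 (3 and 3) and Iglv1 in 6 (5 and 1). With 4 and 15 healthy cells called, whether a gene not seen in healthy mice was absent cannot be told.

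The genes that fell in sick mice were Mir6236, which overlaps ribosomal RNA sequence, and Hba-ps4, an alpha-globin pseudogene. Mir6236 stood at 1531, 1912, 936, 1273 and 2730 TMM-scaled CPM in sick mice 1, 3, 4, 5 and 6 and at 3670, 14109.7 and 38908 in healthy mice 1 to 3 (log2 difference -3.49 ± 0.63, edgeR adjusted p = 0.0473). Hba-ps4 stood at 396, 373, 579, 205 and 641 CPM in sick mice and at 1289, 1821 and 2735 CPM in healthy mice (-2.18 ± 0.41, adjusted p = 0.0473). Neither overlapped between the groups, again without the share over all tested genes. Both lost the call without healthy mouse 3 (adjusted p = 0.273 each, log2 difference -2.21 and -1.67), and both also without sick mouse 1, sick mouse 3, sick mouse 4 or healthy mouse 2. With the mouse number as a block, where only numbers 1 and 3 occurred in both groups, both lost the call too (edgeR adjusted p = 0.741 and 0.724). Hba-ps4 also lost it without TMM scaling (edgeR adjusted p = 0.173). Without healthy mice 2, 3 and 4 together, the log2 difference was -0.52 for Mir6236 (adjusted p = 0.692) and -0.99 for Hba-ps4 (0.468). In the other kept cells of the same mice they stood at -2.25 (adjusted p = 0.0209) and -1.64 (0.0553). All 5 tested erythroid markers were lower in gated cells of sick mice, with a median of -1.57, against 0.07 over all 690 genes, and the share of haemoglobin counts moved with the groups in the same way. Signs of RNA quality did so too. Gm42418, Gm26917 and Lars2 were summed as a proxy for ribosomal RNA reads. They made up 1.19% to 2.09% of gated counts in sick mice and 2.65% to 6.15% in healthy mice. Mitochondrial genes made up 2.31% to 4.50% in sick and 4.29% to 13.4% in healthy mice. What part these have in the calls was not tested.

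Several genes with small p did not pass. Ifi27l2a, an interferon-stimulated gene, had 98 counts in gated cells of sick mice and 1 in healthy mice (edgeR adjusted p = 0.232), and in the other cells it was 2.97 higher on the log2 scale (adjusted p = 2.50e-05). Within the gate it passed the low-count filter through the sick mice alone. Ppp1ca, a phosphatase subunit, stood at 1.70 ± 0.50 and Slc25a5, a mitochondrial nucleotide carrier, at 1.37 ± 0.40 (adjusted p = 0.232 each). Slc4a1, an anion exchanger of the red cell membrane, stood at -2.00 ± 0.48 (adjusted p = 0.162).

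No secretory gene passed the test within the gate. Of 24 ER chaperones 12 were tested, 8 stood above 0 and none was called, with a median log2 difference of 0.14. Hsp90b1 stood at 0.47 ± 0.39 (edgeR adjusted p = 0.781) and Hspa5 at 0.55 ± 0.36 (0.635). Of 26 translocation and glycosylation genes 9 were tested and none called (median 0.39), with Ssr4 at 1.24 ± 0.39 (adjusted p = 0.235) and at 1187, 821, 758, 616 and 703 TMM-scaled CPM in sick mice against 397, 341 and 311 in healthy mice. Ssr4 did not overlap between the groups, which without the share over all tested genes does not set it apart. Of 30 interferon-stimulated genes 2 were tested, Ifi27l2a and Ifitm3 (1.77 ± 0.59, adjusted p = 0.267), and of 23 cell cycle genes 7 were tested, 1 of them above 0, and none was called. No gene of the plasma cell regulator list had enough counts to be tested. Median scaling matters here: without TMM scaling the median of all genes moved by 0.48, and 1 gene was then higher and 1 lower.

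The share of antibody transcripts in the gated cells was higher in every sick mouse than in any healthy one, without passing the test after adjustment. Immunoglobulin genes made up 12.9%, 8.87%, 10.5%, 9.14% and 12.0% of the gated counts in sick mice 1, 3, 4, 5 and 6, and 3.80%, 5.62% and 7.50% in healthy mice 1 to 3. The lowest sick mouse was number 3 and the highest healthy one number 3. The means were 10.7 ± 1.75% (SD, n = 5) and 5.64 ± 1.85% (n = 3), with an exact permutation p of 0.0357, the smallest that 56 splits allow, and an adjusted p of 0.0714. The median depth per gated cell averaged 1370 ± 271 counts in sick mice and 962 ± 152 in healthy mice (exact p = 0.0714). Both depended on the gate, and so did the set of mice with at least 5 gated cells. With a sum of 3 in place of 4 the depth difference was -225 counts, with a sum of 6 it was -4 counts, and without the Siglech condition -223, in place of 407. The sum of 3 brought in healthy mouse 4, and the sum of 6 left fewer than 3 healthy mice, so that no test was run there. The difference in immunoglobulin share was 12.0 points with a sum of 6, in place of 5.04. Without healthy mice 2, 3 and 4 it was 6.88 points, with no test. Jchain itself stood at 16248, 10754, 25773, 14503 and 17451 CPM in gated cells of the sick mice and at 8184, 10231, 14767 and 14920 CPM in those of healthy mice 1 to 4, without a test because it chose the cells.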

How the data were processed

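The deposited table holds raw UMI counts of 24296 genes in 16751 cells of 9 mice. Per the labels' protocols, the authors demultiplexed with bcl2fastq, merged sequencing rounds, followed the Drop-seq protocol 1.0.1 with Picard, and aligned with STAR. The labels' protocols name GRCh38, and the submitters' processing notes GRCm38 and mm9. The gene symbols are of the mouse, and coordinates and sequences here are from GENCODE M21 on GRCm38. Kept cells had 200 or more genes and a mitochondrial share of up to 20%. Members, lists and tests were chosen with earlier results of these data known. Values per mouse were compared by exact two-sided permutation (scipy 1.17.1), adjusted by Benjamini-Hochberg within abundance, class and composition. Ratios to other cell types carry 0.5 added to both counts. Counts summed over gated cells were tested with the quasi-likelihood test of edgeR 4.0.16 in R 4.3.3, after filterByExpr and TMM scaling, with DESeq2 1.42.0 as an alternative, after a test on simulated data. CPM values are of summed counts without TMM scaling except where stated. Named genes are the gate genes, constant genes, up to 10 called genes per direction (or the 5 smallest p), leading genes of the gate, the highest members of each list, and variable genes leading in at least 3 cells, of which those that the results turn on are given; some items are not reported here. Intervals and limits for 0 (3 counts) cover counting error only.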

Additional observations from a re-analysis of the deposited data

Results flagged for a closer look

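In 34 groups of 4 or 5 mice, the highest or lowest mouse was tested for standing far from the rest, and 5 groups had such a mouse. Chance flags about 5% of groups, and several of these values come from the same mouse and are not independent. Healthy mouse 3 stood above the other healthy mice in the share of IgM cells (0.572% of kept cells, against 0% to 0.0951%). It did so in gated cells for Ighg2b (610 CPM, against 0 to 81.2 CPM), Ighg2c (813 CPM, against 0 to 81.2 CPM) and Ighg3 (135 CPM, against 0 in the others). Those levels rest on 27, 36 and 6 counts. Sick mouse 3 stood below the other sick mice for Ighg3 (127 CPM, against 328 to 387 CPM), on 28 counts.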

How the results depend on the processing

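Of 249 values recomputed under 32 alternatives, 178 were rated the same. For tested values this meant the same direction and side of the threshold. For values without a test it meant the same direction and a shift smaller than the SD between mice. For counts of genes it meant a count within a set fold range of the main one. The share of gated cells (0.346 points, sick minus healthy) passed without gated cells rich in S100a8 and S100a9 or haemoglobin (0.501), a filter that removed cells unequally between the groups, where the early B ratio (0.43), IgA (0.0840) and IgM (0.0108) turned. The IgG share passed there (0.345) and over non-erythroid cells (0.717, with IgA at 0.0880). IgM turned with classes called from 1 count (0.0257) and IgA with 5 (0.0219). A gate sum of 3 turned the ratio per plasmacytoid dendritic cell (-0.019) and the median depth (-225 counts), as did dropping the Siglech condition for depth (-223). A sum of 6 gave -4 counts and an immunoglobulin difference of 12.0 points. The mice with at least 5 gated cells, on which both rest, changed with the sum. Alternatives chosen after the data were seen gave 0.55 for the early B ratio in immunoglobulin-rich cells, and, without healthy mice 2, 3 and 4, 2.24 and 1.49 for the ratios, 0.112 for IgA and 0.0857 for IgM. The cause was not tested.

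With each mouse left out, the share ran from 0.0853 to 0.882, the plasmacytoid ratio from -0.26 to 1.12, the early B ratio from -1.37 to 0.87, IgG from 0.416 to 0.669, IgA from -0.233 to 0.0973, IgM from -0.0687 to 0.122, higher genes from 1 to 3 and lower genes from 0 to 4.

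Counts of higher and lower genes (1 and 2) became 3 and 15 with DESeq2, 41 and 7 with no low-count filter, 0 and 10 without immunoglobulin genes (Ighg1 being one), 1 and 4 with all mice, 1 and 11 with mice of at least 10 gated cells, 1 and 0 with a gate sum of 6, 2 and 0 without healthy mice 2, 3 and 4, and 1 and 1 without TMM. With S100 or haemoglobin-rich cells left out, no healthy mouse had 5 gated cells, and the fit was not run.

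Same-numbered mice did not deviate together (correlations -0.0435 and -0.11), and the labels do not pair them. With the mouse number as a replicate block, 0 genes were higher and 0 lower, the share differed by 0.434, IgG by 0.737 and the early B ratio by 0.022. Only numbers 1 and 3 occurred in both groups of the gene fit, so that it could hardly call a gene. The other 3 block values rest on 3 pairs of mice. With 8 mice in the fit, depth of 8060 to 133547 counts per mouse over the 690 genes tested limits the test to abundant genes.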
